A study of Mus musculus with 8 samples.

Results

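The circadian clock output genes described here are Per1, Per2, Per3, Dbp, Tef, Hlf, Nr1d1, Nr1d2, Arntl and Ciart, 10 of the 31053 genes listed for these libraries, found by symbol. They were selected because clock genes had been noticed among the genes of fibroblasts (FBs) that differ between libraries numbered 1 and 2 and libraries numbered 3 and 4. That difference in FBs is therefore what chose the genes, and it is given below as a description with no test, also in other cell classes of the same mice. Dorsal skin of female BALB/c mice aged 14 to 16 weeks was analysed by droplet-based single-cell RNA sequencing, 4 mice after subcutaneous injection of PBMCsec, the secretome of irradiated human peripheral blood mononuclear cells, and 4 after injection of vehicle, with 1 library per mouse. No transgene or deletion is given for either group. The labels number the libraries 1 to 4 in each group and give neither the wounding, the time point, the composition of the vehicle nor the time of day at which skin was taken. What a library number stands for is likewise not given. The methods of the study describe scars injected intradermally in mice of another age, saline and medium as separate controls, and an earlier and a later sampling of equal parts of each group, and no label used here ties these to a library.

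Of 26231 deposited barcodes, 6150 passed the filter on genes, UMIs (unique molecular identifiers, 1 per captured transcript molecule) and mitochondrial counts. FBs numbered 1542, epithelial cells 2605, lymphoid cells 858 and myeloid cells 518, each named from marker genes with the clock genes kept out of the clustering. Totals per library lay between 14753926 and 27786595 UMIs in libraries numbered 1 and 2 and between 30494307 and 37880651 in libraries numbered 3 and 4, without overlap. FBs per library lay between 22 and 176 in the former and between 156 and 534 in the latter, and the vehicle libraries numbered 1 and 2 held 28 and 22. Median UMIs per FB overlapped, at 6724 to 11754 and 7539 to 10687. These differences in depth and cell number move with the library numbers, and their part in the values below was not tested.

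In the mammalian clock, Arntl encodes BMAL1, which pairs with CLOCK and drives transcription from E-box elements. The period genes Per1, Per2 and Per3 and the repressor Ciart feed back on that complex, and the nuclear receptors Nr1d1 and Nr1d2 (REV-ERB alpha and beta) repress Arntl through ROR elements. Dbp, Tef and Hlf encode PAR bZIP transcription factors that bind D-box elements and carry the rhythm to output genes. In many mouse tissues, skin included, Arntl transcripts are high when Dbp transcripts are low, and the reverse.

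Promoter windows from 250 bases before to 50 bases after a transcript start were taken from RefSeq (GRCm38.p6) and were matched for 9 of the 10 genes, in 12 windows. The E-box was searched as CACGTG, the D-box as TTATGTAA and the ROR element as TAGGTCA or TGGGTCA, on both strands. An E-box was found for 3 of the 9 genes (Per1, Tef and Ciart), a D-box for 1 (Per3) and a ROR element for 1 (Arntl). Among all 27025 genes with windows of this length, the shares with a match were 8.09% for the E-box, 1.11% for the D-box and 7.35% for the ROR element, and per window (32851 in all) they were 7.15%, 0.938% and 6.45%. The windows below are shown because each holds the element through which a clock factor is known to act on a member, with matches in capitals. The Per1 window lies at chr11:69098699-69098998 on the plus strand, that of Ciart at chr3:95882179-95882478 on the minus strand with 3 E-boxes, that of Per3 at chr4:151044616-151044915 on the minus strand with 2 D-boxes, and the second window of Arntl at chr7:113207261-113207560 on the plus strand. A match is a description of letters and shows no binding.
Per1: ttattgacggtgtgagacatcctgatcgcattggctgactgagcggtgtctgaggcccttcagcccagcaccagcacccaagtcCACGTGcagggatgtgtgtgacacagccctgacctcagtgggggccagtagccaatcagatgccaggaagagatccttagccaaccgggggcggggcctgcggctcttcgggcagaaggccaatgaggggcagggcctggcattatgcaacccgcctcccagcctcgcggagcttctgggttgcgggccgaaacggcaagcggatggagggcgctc
Ciart: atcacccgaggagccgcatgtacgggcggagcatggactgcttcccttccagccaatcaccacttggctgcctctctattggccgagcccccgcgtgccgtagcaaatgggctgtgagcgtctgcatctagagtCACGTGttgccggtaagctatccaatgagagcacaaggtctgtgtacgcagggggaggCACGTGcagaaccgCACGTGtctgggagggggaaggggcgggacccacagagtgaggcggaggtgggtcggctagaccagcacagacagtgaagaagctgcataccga
Per3: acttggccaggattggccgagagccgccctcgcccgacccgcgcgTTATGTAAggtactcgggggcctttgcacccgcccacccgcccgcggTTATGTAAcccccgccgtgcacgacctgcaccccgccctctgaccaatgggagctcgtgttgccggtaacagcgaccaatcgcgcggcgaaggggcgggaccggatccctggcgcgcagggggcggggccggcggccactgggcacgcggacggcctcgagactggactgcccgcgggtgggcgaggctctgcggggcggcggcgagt
Arntl: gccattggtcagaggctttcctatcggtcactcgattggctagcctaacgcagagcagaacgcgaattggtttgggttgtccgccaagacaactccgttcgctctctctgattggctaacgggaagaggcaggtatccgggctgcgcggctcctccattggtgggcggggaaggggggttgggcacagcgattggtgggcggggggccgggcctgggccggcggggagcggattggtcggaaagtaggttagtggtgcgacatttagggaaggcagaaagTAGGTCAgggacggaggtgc

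In FBs, most of the output genes were lower and Arntl was higher in libraries numbered 3 and 4, while Nr1d1 overlapped and Ciart could not be ordered. Levels are UMI counts scaled to the library size (CPM) of all FBs of a library summed, scaled with TMM factors, and 8 of the 10 genes had enough counts for the analysis across all genes. Of these 8, Per1, Per3, Dbp, Tef, Hlf and Nr1d2 were lower in every library numbered 3 and 4 than in any numbered 1 and 2, and Arntl was higher in every one. Over all 9422 genes, 3.43% were lower without overlap and 4.99% higher, and since the genes were chosen on this difference nothing is read from the comparison of those shares. The median log2 difference of the 8 genes was -1.70, against 0.07 over all genes.

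Dbp, the albumin D-box binding protein, stood at 127, 122, 7.999 and 21.0 CPM in PBMCsec libraries 1 to 4 and at 24.8, 69.7, 23.7 and 7.60 CPM in vehicle libraries 1 to 4. Its highest value in libraries numbered 3 and 4 (23.7) lay just under its lowest in libraries numbered 1 and 2 (24.8), the latter from 6 UMIs in 28 cells. The log2 difference (3 and 4 minus 1 and 2) was -3.14 within PBMCsec libraries and -1.54 within vehicle libraries. Hlf, the hepatic leukaemia factor, had 73.5, 39.4, 6.49 and 9.46 CPM after PBMCsec and 86.8, 145, 14.8 and 12.4 CPM after vehicle. It showed the lowest log2 difference of the 8, at -2.77, a 6.83-fold lower level in libraries numbered 3 and 4. Tef, the thyrotroph embryonic factor, had 81.6, 117, 18.2 and 16.9 CPM after PBMCsec and 57.9, 52.3, 29.3 and 20.04 CPM after vehicle, and was 3.41-fold lower. All 3 PAR bZIP genes thus separated the 2 pairs of numbers under both treatments.

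Among the period genes, Per3 had 43.3, 129.8, 10.8 and 6.76 CPM after PBMCsec and 37.2, 40.7, 16.5 and 6.91 CPM after vehicle, with the PBMCsec library numbered 2 standing apart from the others. Per1 had 48.2, 42.7, 26.8 and 26.4 CPM after PBMCsec and 74.4, 40.7, 15.5 and 18.7 CPM after vehicle. Its fold of 2.28 between the pairs of numbers was smaller than that of Per3 (5.11), with no test of that difference. Per2, with 84 UMIs in all FBs, was under the count minimum. PBMCsec libraries 1 to 4 had 27.2, 23.0, 1.30 and 1.35 CPM of Per2 and vehicle libraries 1 to 4 had 20.7, 5.81, 2.63 and 2.76 CPM, which also do not overlap between the pairs of numbers, although the vehicle library numbered 2 rests on 1 UMI. Ciart gave 7 UMIs in all FBs, at most 2 in any library, and cannot be ordered at this depth.

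Both REV-ERB genes had negative log2 differences, and only those of Nr1d2 came without overlap. Nr1d2 had 121, 82.1, 38.9 and 23.7 CPM after PBMCsec and 112, 87.2, 44.1 and 23.5 CPM after vehicle, with nearly equal log2 differences of -1.67 and -1.58 within the 2 treatments. Nr1d1 had 92.1, 50.9, 32.2 and 48.0 CPM after PBMCsec and 53.8, 186, 54.7 and 34.5 CPM after vehicle, and was the only one of the 8 whose pairs of numbers overlapped, by 54.7 against 50.9. Its log2 difference was -0.98, with -0.78 within PBMCsec and -1.18 within vehicle libraries. Arntl, the positive arm of the loop, ran the other way, with 16.7, 14.8, 46.5 and 41.9 CPM after PBMCsec and 8.27, 17.4, 37.2 and 41.5 CPM after vehicle. Its level in libraries numbered 3 and 4 was 41.8 ± 3.79 CPM (SD, n = 4) against 14.3 ± 4.17 CPM (SD, n = 4) in the others, a log2 difference of 1.51.

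**Figure D1:**
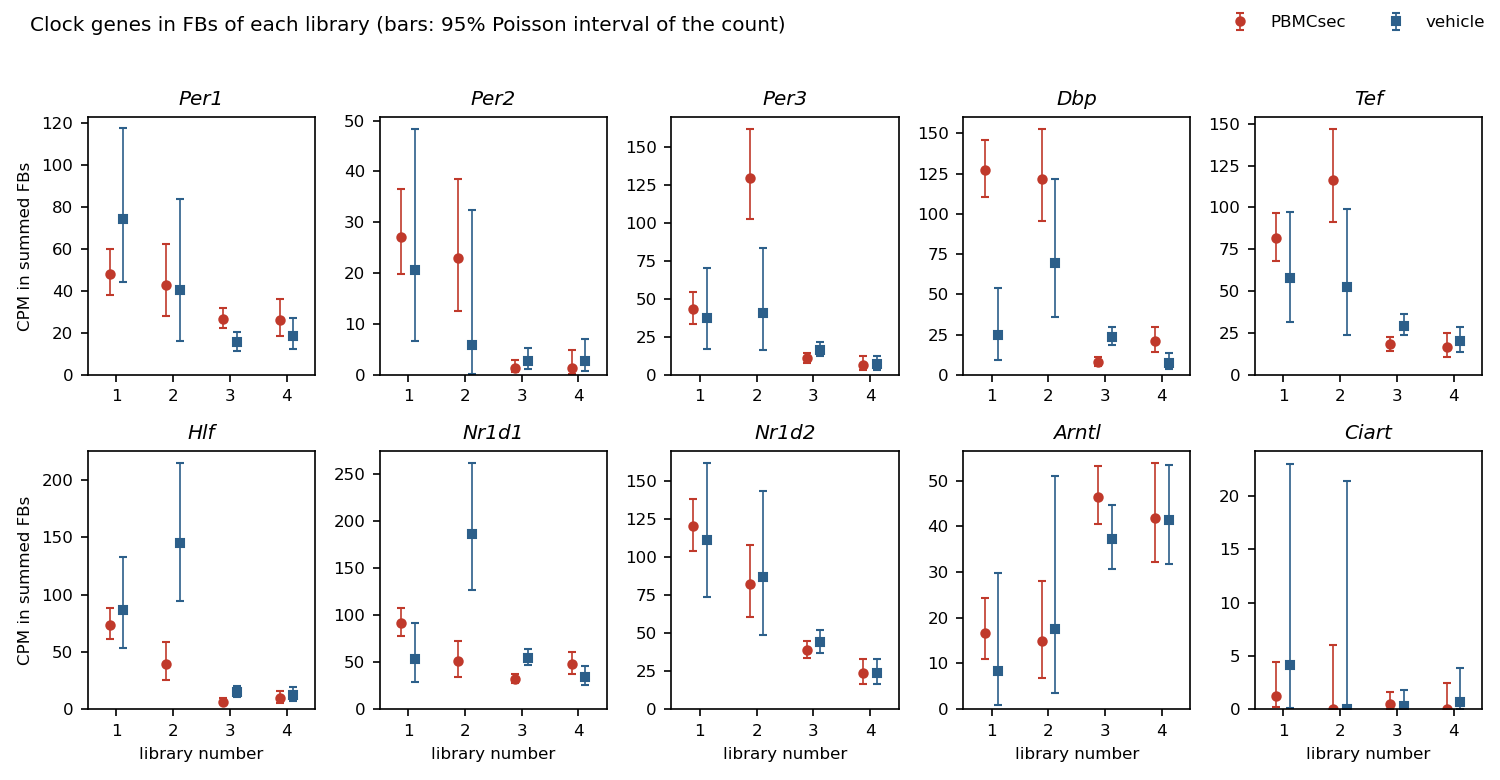
CPM of the 10 clock genes in the summed FBs of each library, by library number (x axis), for PBMCsec (circles) and vehicle (squares), with 95% Poisson intervals of the count, which cover counting error only. Libraries numbered 3 and 4 are low for the output genes and high for Arntl (37.2 to 46.5 CPM), and the intervals of the vehicle libraries numbered 1 and 2 are wide.

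The comparison was repeated within FB clusters. Counts were pooled over the 4 libraries numbered 1 and 2 and over the 4 numbered 3 and 4 in each of the 7 FB clusters, and CPM here are scaled to the total alone. The exact Poisson intervals of the pools cover counting error only and leave out the spread between mice. The PBMCsec library numbered 1 gave 176 of the 296 FBs in the pool of libraries numbered 1 and 2. These FB values also chose the genes, and no share over all genes was computed, so the cluster counts are a description. Arntl was higher in libraries numbered 3 and 4 in all 7 clusters, with the intervals of both pools apart in 2. Per3, Tef and Nr1d2 were lower in all 7, with intervals apart in 4, 5 and 6. Per1, Per2, Dbp, Hlf and Nr1d1 were lower in 6 of 7, with intervals apart in 2, 4, 5, 5 and 3. In the cluster led by Hmcn2, Angptl1 and Mgp, Dbp fell from 156 CPM (106 UMIs, 67 cells) in libraries numbered 1 and 2 to 16.1 CPM (23 UMIs, 140 cells) in libraries numbered 3 and 4, while Arntl stood at 8.84 (6 UMIs) and 30.03 CPM (43 UMIs). In the cluster led by Sfrp2 and Fn1, Dbp was at 129 and 17.1 CPM and Arntl at 4.94 (3 UMIs) and 40.6 CPM (109 UMIs). The inflammatory cluster led by Ptx3 and Cxcl1 differed least in Dbp among clusters with more than 3 UMIs in both pools, with 29.2 and 13.5 CPM and overlapping intervals. Hlf was not lower in the cluster led by Igfbp2 and Ednrb, with 9.93 CPM (3 UMIs) and 16.0 CPM (28 UMIs). Within libraries numbered 3 and 4, Dbp lay between 4.71 ± 4.63 and 23.7 ± 21.2 CPM (SD, n = 4) over the 5 clusters with at least 10 cells in each of the 4 libraries, and these ranges overlapped.

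In epithelial cells, Dbp, Per1 and Nr1d2 again separated the pairs of numbers, while Arntl did not. Dbp had 44.2, 31.8, 9.40 and 4.31 CPM in PBMCsec libraries 1 to 4 and 23.4, 65.4, 6.85 and 4.73 CPM in vehicle libraries 1 to 4. Its log2 difference was -2.55, and in FBs of the same mice it was -2.34. Per1 (log2 difference -1.37) and Nr1d2 (-1.48) were lower without overlap too, which made 3 of the 8 genes with enough counts, where 4.42% of 10614 genes were lower and 5.44% higher without overlap. Tef, Nr1d1, Hlf and Per3 had log2 differences of -1.23, -1.60, -0.60 and -0.51 with overlap. In the PBMCsec library numbered 2, for example, Tef was at 18.7 CPM, within the range of 15.1 to 23.9 CPM of libraries numbered 3 and 4. Arntl had 37.3, 14.9, 33.3 and 24.5 CPM after PBMCsec and 28.1, 20.7, 28.7 and 35.0 CPM after vehicle, and its log2 difference was 0.33. When counts were pooled, Per1 and Nr1d1 were lower in libraries numbered 3 and 4 in all 11 epithelial clusters, with intervals apart in 6 and 7. Per3, Dbp, Tef and Nr1d2 were lower in 10 of 11, with intervals apart in 0, 6, 6 and 5. Hlf was lower in 7 and Arntl in 4. The PBMCsec library numbered 1 gave 242 of the 398 epithelial cells in the pool of libraries numbered 1 and 2. No share over all genes was computed, so these counts are a description.

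Lymphoid cells showed another order. Per1, Hlf, Nr1d2 and Arntl had enough counts there, and of these 4 only Arntl did not overlap, being lower in libraries numbered 3 and 4. Arntl had 47.0, 44.4, 30.5 and 33.9 CPM after PBMCsec and 47.6, 73.2, 25.4 and 29.8 CPM after vehicle, a log2 difference of -0.72, opposite in sign to that in FBs. Over 5036 genes, 3.97% were lower and 4.63% higher without overlap. Per1 and Hlf overlapped, with log2 differences of -0.33 and -0.40. Median UMIs per lymphoid cell also differed between the pairs of numbers, from 4797 to 5443 in libraries numbered 1 and 2 and from 2413 to 3251 in the others. In myeloid cells Per1 alone had enough counts, with 37.5, 32.8, 28.1 and 22.1 CPM after PBMCsec and 73.8, 54.8, 32.4 and 36.9 CPM after vehicle, and its pairs overlapped (4.07% of 5624 genes were lower and 5.17% higher without overlap). When all kept cells were summed, 8 of the 10 genes were lower without overlap, all but Nr1d1 and Arntl, against 10.8% of 13182 genes lower and 10.3% higher. Those sums also hold different shares of each cell class.

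**Figure D2:**
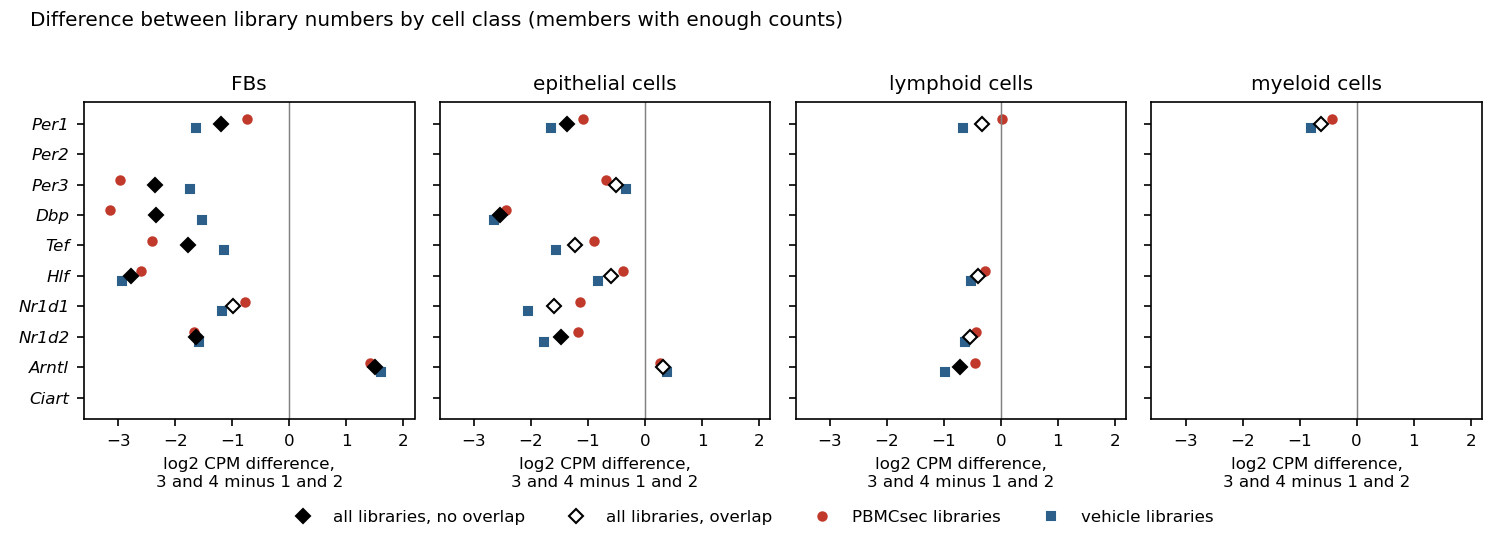
Log2 CPM difference between libraries numbered 3 and 4 and libraries numbered 1 and 2 (x axis) for the genes with enough counts in each class, over all libraries (diamonds, filled where the pairs do not overlap) and within PBMCsec (circles) and vehicle (squares). Arntl lies at 1.51 in FBs, 0.33 in epithelial cells and -0.72 in lymphoid cells.

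The treatment contrast was not used to choose the clock genes. It was tested in each class with edgeR's quasi-likelihood test on the summed counts. The fit held no term for the library number. In FBs the difference that chose the genes therefore counted as spread within each treatment, which widens their intervals. An absent call in FBs is thus not independent of the choice. Differences between the numbers counted as spread in epithelial cells too, where they were -2.55 for Dbp, -1.60 for Nr1d1, -1.48 for Nr1d2 and -1.37 for Per1. The test called 0 genes (0%) at an adjusted p under 0.05 in FBs, in epithelial, lymphoid and myeloid cells and in all kept cells. At an unadjusted p under 0.05 it listed 212 of 9422, 168 of 10614, 186 of 5036, 261 of 5624 and 335 of 13182 genes, with no clock gene among them. DESeq2 called 3 genes in lymphoid cells, 7 in myeloid cells and 8 in all kept cells, and again no clock gene. In lymphoid cells and all kept cells, the fit with the library number as a block called 3 and 0 genes, none of them a clock gene. At an unadjusted p under 0.05 the block fit by edgeR listed 1 clock gene in each class, of 8, 8, 4 and 1 tested in FBs, epithelial, lymphoid and myeloid cells. In all kept cells it listed 1 of 10. Over all genes it listed 223 of 9422, 221 of 10614, 323 of 5036, 365 of 5624 and 523 of 13182.

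In FBs, Dbp had the highest log2 fold change after PBMCsec, 1.51 (SE 0.86, 95% interval -0.35 to 3.38, edgeR adjusted p = 0.999906). Per3 followed with 1.21 (interval -0.71 to 3.13), Tef with 0.71 and Per1 with 0.34. Nr1d2 (0.22), Arntl (-0.01), Nr1d1 (-0.31) and Hlf (-0.50) made up the rest. The interval of Arntl ran from -0.91 to 0.88. A change by 2-fold or more in either direction was within the interval of 7 of the 8 genes, all but Arntl, so these widths do not show that the treatments acted alike. The sign of the estimates turned between the pairs of numbers: in libraries numbered 3 and 4 alone, Dbp, Per3 and Tef stood at -0.36, -0.42 and -0.51. The difference of the treatment effect between the pairs was called for 1 gene of 9422 (0.0106%), which was no clock gene. Among the members it was lowest for Dbp, -1.86 (SE 0.83, edgeR adjusted p = 0.739563), followed by Per3 with -1.50 (SE 0.85, edgeR adjusted p = 0.803465) and Tef with -1.32 (SE 0.47, edgeR adjusted p = 0.702857). DESeq2 called 20 genes there and no member.

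In epithelial cells the 8 log2 fold changes lay between -0.62 (Hlf) and 0.05 (Per1), and the interval of Dbp ran from -2.09 to 2.05. Hlf had 33.0, 43.0, 48.3 and 17.0 CPM after PBMCsec and 56.3, 86.1, 36.0 and 42.8 CPM after vehicle. Hlf was also the lowest of the 4 genes tested in lymphoid cells, -0.62 (interval -1.30 to 0.055), with 95.9 ± 38.3 CPM after PBMCsec and 151 ± 59.1 CPM after vehicle (SD, n = 4 each). Neither change was called, at adjusted p = 0.999996 in epithelial and adjusted p = 0.9972 in lymphoid cells by edgeR. Per1 stood at -0.63 in myeloid cells (interval -1.35 to 0.091).

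**Figure D3:**
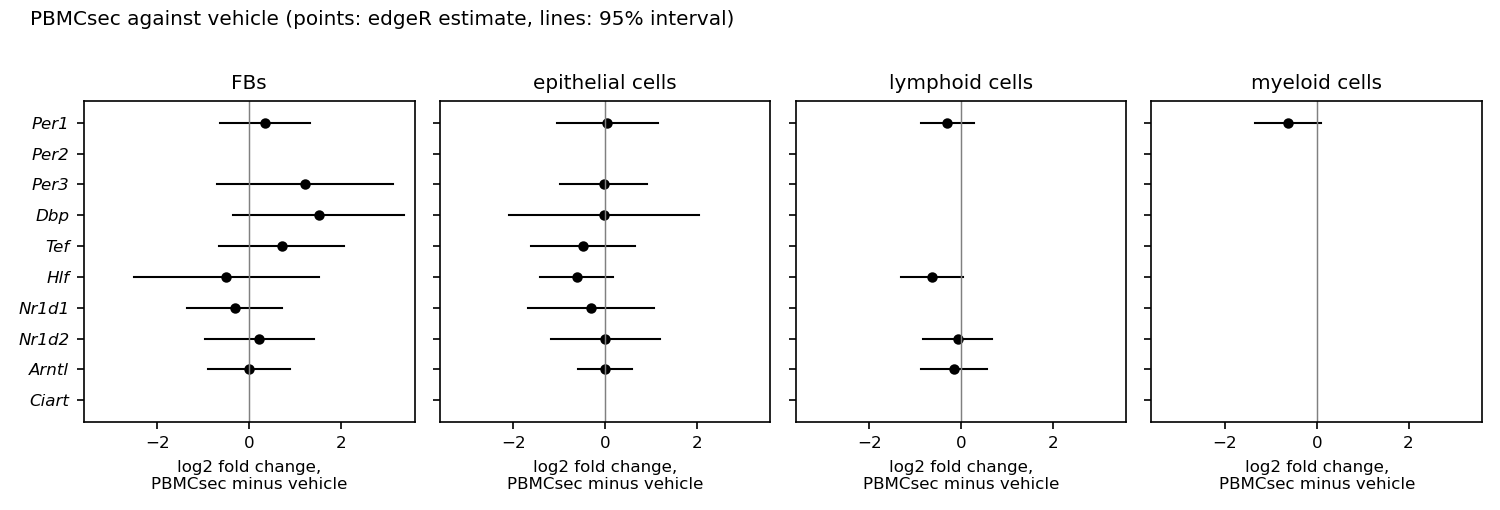
Log2 fold change after PBMCsec against vehicle (x axis) with the 95% interval from edgeR for each clock gene with enough counts, by cell class. Every interval includes 0, and those of Dbp are the widest in epithelial cells (-2.09 to 2.05).

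The level of each gene was then compared between cell classes, in 1 fit with a term for each library, so that every class was set against the FBs of the same mouse. The fit covered 8783 genes, and 8 of the 10 clock genes had enough counts in it. All 3 comparisons share the FBs as their reference, whose values also chose the genes. The p-values of the members in them are therefore not read as evidence. Differences from FBs within 1 pair of library numbers rest on those values directly and are given as a description, with no test. Between 32.2% and 36.2% of all genes were called in each direction, so a call by itself says little about a gene. CPM in this part are scaled over the 4 classes together.

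Against FBs, epithelial cells had lower Per3, Dbp and Nr1d2 (3 of 8, where 32.4% of all genes were lower), and none was called higher (36.2% of all genes). Nr1d2 was at 38.3 ± 21.6 CPM in epithelial cells and 67.1 ± 38.9 CPM in FBs (SD, n = 8), a log2 difference of -0.79 (SE 0.17, edgeR adjusted p = 0.000156203), and was lower in 8 of 8 libraries. Dbp differed by -1.18 (SE 0.31) and was lower in 7 of 8, and Per3 by -1.11 (SE 0.28) in 6 of 8. The log2 difference of Per3 was -2.04 within libraries numbered 1 and 2 and -0.54 within those numbered 3 and 4. Hlf and Arntl were not called. Within libraries numbered 1 and 2 they stood at -0.67 and 0.71, and within those numbered 3 and 4 at 1.73 and -0.54.

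Lymphoid cells carried more Per1 than FBs, and more Hlf mainly in libraries numbered 3 and 4. Per1 was at 108 ± 32.4 CPM against 37.0 ± 19.3 CPM in FBs (SD, n = 8), 1.67 higher on the log2 scale (SE 0.18, edgeR adjusted p = 3.04981e-09), in 8 of 8 libraries. The log2 difference of Per1 was 1.12 within libraries numbered 1 and 2 and 2.04 within those numbered 3 and 4. Its FB values helped choose it, so nothing is read from its p-value. Hlf was at 112 ± 48.3 CPM against 48.8 ± 49.5 CPM (SD, n = 8), 1.78 higher (SE 0.35, edgeR adjusted p = 4.28801e-05) in 7 of 8 libraries. Its log2 difference was 0.57 within libraries numbered 1 and 2 and 3.12 within those numbered 3 and 4. The larger value rests on low FB levels that helped choose the gene, so nothing is read from the p-value of Hlf. Per1 and Hlf were 2 of the 8 genes, where 34.5% of all genes were higher. Nr1d1 was lower in 8 of 8 libraries, by 1.77 on the log2 scale, with 21.3 ± 20.8 CPM against 69.5 ± 50.2 CPM (SD, n = 8). Per3, Dbp, Tef and Nr1d2 were called lower as well, which made 5 of 8, where again 34.5% of all genes were lower. Per3, Dbp, Tef and Nr1d1 passed the count minimum through the other classes, not in lymphoid cells alone. Within libraries numbered 1 and 2 the log2 differences of Per3, Dbp, Tef and Nr1d2 were -2.17, -2.40, -1.85 and -1.14, and within those numbered 3 and 4 they were -0.018, 0.14, -0.19 and 0.019. Leaving out the PBMCsec library numbered 1 also ended the calls of Dbp (-0.87) and Nr1d2 (-0.37). Arntl was at 0.23 over all libraries and was not called, with 1.57 within libraries numbered 1 and 2 and -0.77 within those numbered 3 and 4.

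In myeloid cells, Per1 was at 40.9 ± 15.9 CPM (SD, n = 8), with a log2 difference from FBs of 0.21 (SE 0.21), which was not called. The other 7 genes were called lower (32.2% of all genes were lower and 33.6% higher), but these 7 entered the fit through their counts in the other classes, since in myeloid cells alone only Per1 passed the count minimum. Hlf gave 4 UMIs in all 518 myeloid cells and was at 0 in 6 of 8 libraries. Dbp gave 12 UMIs there and stood at 3.47 ± 2.85 CPM against 50.9 ± 50.05 CPM in FBs (SD, n = 8). Nr1d2, at 11.4 ± 5.15 CPM, was lower than in FBs in 8 of 8 libraries by 2.39 on the log2 scale.

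**Figure D4:**
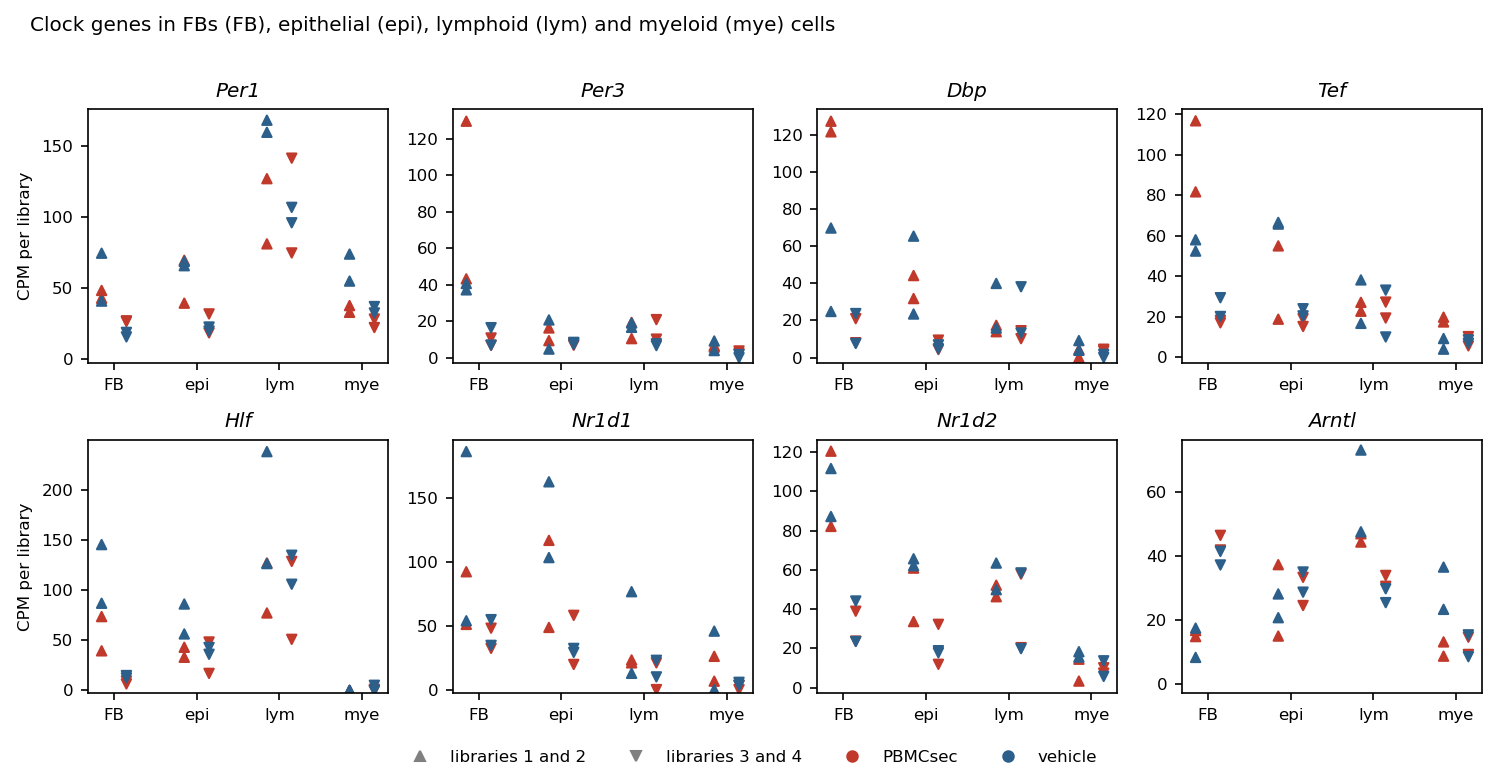
CPM of 8 clock genes in each library (y axis) in FBs, epithelial, lymphoid and myeloid cells, with upward triangles for libraries numbered 1 and 2, downward triangles for 3 and 4, red for PBMCsec and blue for vehicle. These CPM were scaled within each class, unlike the class comparisons in the text, which were scaled over the 4 classes together. Per1 and Hlf are highest in lymphoid cells in most libraries, Hlf is close to 0 in myeloid cells, and Arntl separates the pairs of numbers in opposite directions in FBs and lymphoid cells.

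Within the epithelium, mean Nr1d1 levels spanned 1.98 to 130.3 CPM over the 11 clusters and mean Hlf levels 0 to 117 CPM. In libraries numbered 3 and 4, Nr1d1 was at 130.3 ± 17.2 CPM in the cluster of activated keratinocytes (KCs) led by Serpinb2 and Fosl1. It was at 60.2 ± 17.0 CPM in the basal cluster led by Gnai1 and at 59.5 ± 21.1 CPM in the suprabasal Krt1 and Krt10 cluster (SD over libraries, n = 4 in each cluster). The Serpinb2 cluster also passed the basal markers Krt5, Krt14, Krt15, Col17a1 and Itga6, as the basal cluster did. The suprabasal cluster also passed the activated markers Serpinb2, Fosl1 and Krt16, so these markers do not fully separate the named clusters. The lowest library of the Serpinb2 cluster (105 CPM) lay above the highest of the basal (77.6 CPM) and the suprabasal cluster (81.5 CPM), while the latter pair did not differ beyond their spread. In follicle clusters Nr1d1 was low, at 4.20 ± 1.63 CPM in the cluster with Lgr5 and Id4, at 5.34 ± 4.51 CPM in the one led by Sostdc1 and at 2.51 ± 2.76 CPM in the inner root sheath cluster led by Krt25 and Krt71 (SD, n = 4 each). The cluster with Grem1 and Lhx2 was the exception among follicle clusters, with 41.0 ± 38.3 CPM and a range of 4.03 to 85.7 CPM.

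Hlf was restricted in another way. It was at 117 ± 39.1 CPM in the suprabasal cluster and at 87.9 ± 10.5 CPM in the basal cluster (SD, n = 4 each), whose ranges of 61.4 to 153 and 81.7 to 104 CPM overlapped. The Serpinb2 cluster followed with 35.4 ± 17.3 CPM, with its highest library (44.7 CPM) below the lowest of both. In the cluster led by Pthlh and Kalrn, Hlf had 0 UMIs in 201 cells of libraries numbered 3 and 4, with an upper Poisson limit of 1.84 CPM, and in the Krt6a cluster 1 UMI in 146 cells. Between the pairs of numbers, pooled Hlf in the basal cluster was 92.8 CPM (49 UMIs) in libraries numbered 1 and 2 and 89.1 CPM (252 UMIs) in libraries numbered 3 and 4, with overlapping intervals. In the suprabasal cluster it was lower in libraries numbered 1 and 2, with 47.8 CPM (11 UMIs, 35 cells) against 128 CPM (366 UMIs, 232 cells) and intervals apart, the opposite order to FBs. The proliferating cluster led by Cenpf kept the order of FBs, with 164 CPM (18 UMIs, 14 cells) and 14.9 CPM (9 UMIs, 63 cells). Over the 11 clusters, Hlf was higher in libraries numbered 1 and 2 in 7 and lower in 3, with intervals apart in 2. These pools leave out the spread between mice. Dbp was at 81.4 CPM (43 UMIs) and 11.3 CPM (32 UMIs) in the basal cluster led by Gnai1. Arntl ranged from 11.4 ± 6.25 CPM in the inner root sheath cluster to 44.2 ± 14.1 CPM in the cluster with Lgr5 and Id4 (SD, n = 4). Clusters were formed from the same cells, so these values are given without a test, although no clock gene entered the clustering.

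**Figure D5:**
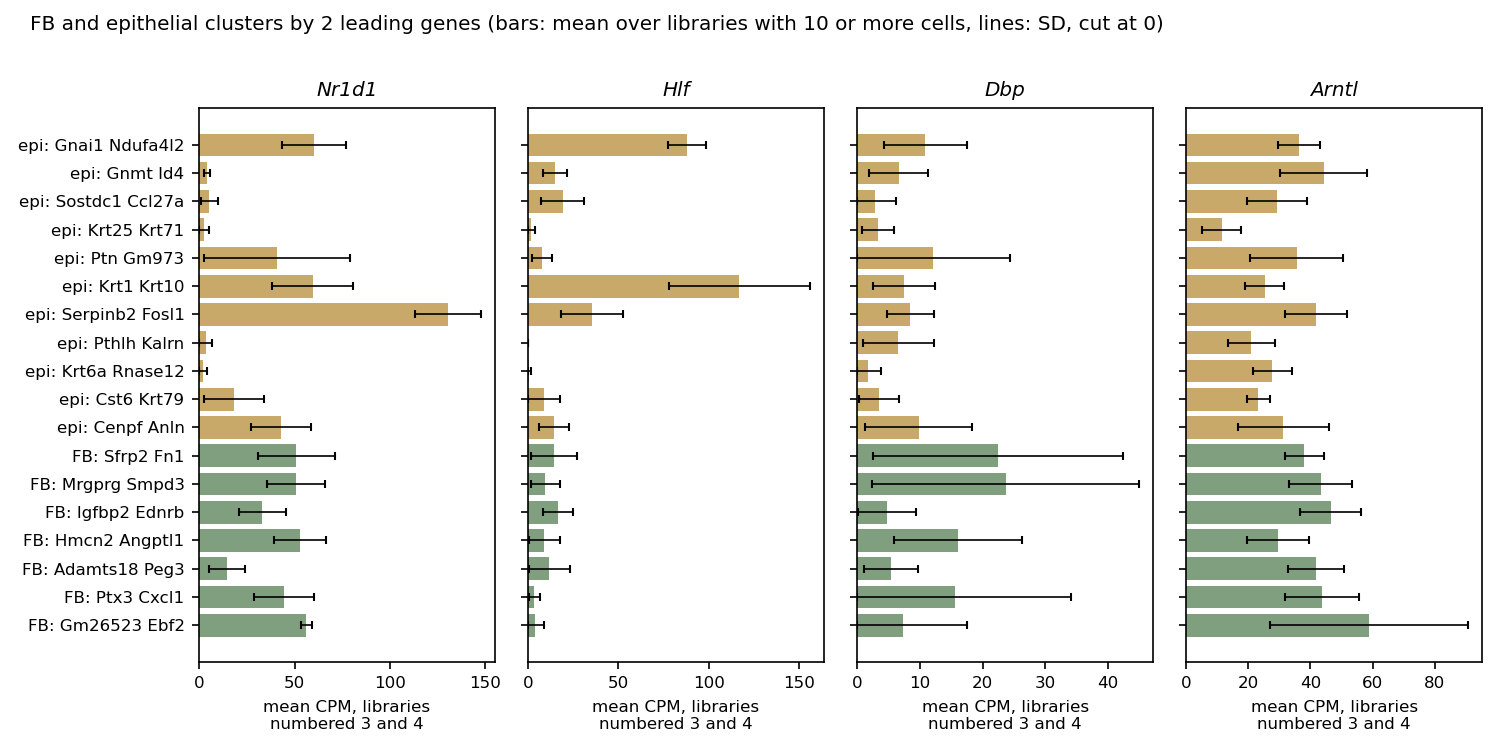
Mean CPM in libraries numbered 3 and 4 (x axis) of Nr1d1, Hlf, Dbp and Arntl in 11 epithelial clusters (ochre) and 7 FB clusters (green), named by 2 leading genes, with the SD over libraries that hold at least 10 cells. Nr1d1 peaks in the Serpinb2 Fosl1 cluster (130.3 CPM) and Hlf in the Krt1 Krt10 cluster (117 CPM) and the basal cluster led by Gnai1 (87.9 CPM).

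Lymphoid clusters differed too. Hlf was at 274 ± 71.3 CPM (SD, n = 3) in the cluster led by Csf2, Arg1 and Il13 and at 261 ± 2.36 CPM (SD, n = 2) in the cluster with Blk and Trdc, in libraries numbered 3 and 4 with at least 10 such cells. The cytotoxic cluster led by Ccl5 and Xcl1 stood at 22.8 ± 14.98 CPM (SD, n = 4). In the same libraries Per1 was at 198 ± 49.9 CPM (SD, n = 4) in the Ctla4 and Icos cluster and 153 ± 97.6 CPM (SD, n = 3) in the Csf2 cluster, whose ranges overlapped, against 78.9 ± 43.0 CPM in the cluster led by Trac and Cd4 and 56.3 ± 46.0 CPM in the Ccl5 cluster (SD, n = 4 each). Pooled over libraries numbered 1 and 2, Per1 was at 170.0 CPM in the Ctla4 and 175 CPM in the Csf2 cluster, with overlapping intervals.

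Exons of Nr1d1 (chr11:98767932-98775333, minus strand) overlap those of Thra on the other strand, and exons of Dbp (chr7:45705088-45710203, plus strand) overlap those of Sphk2. Whether the counting used strand is not given in the sources used here, and mixing of reads within such pairs was not tested. Thra, which encodes a thyroid hormone receptor, was at 160.4 and 156 CPM in the pooled FBs of libraries numbered 1 and 2 and of libraries numbered 3 and 4, where Nr1d1 was at 82.8 and 41.2 CPM. Sphk2, a sphingosine kinase gene, was at 8.09 and 10.3 CPM, where Dbp was at 109.6 and 14.3 CPM. Neither partner moved with the library numbers as the member did. Tef and Arntl overlap antisense genes with 3 and 0 UMIs in FBs.

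A list of 22 other clock genes (Clock, cryptochromes, ROR receptors, kinases, E3 ligase genes and outputs such as Wee1 and Por) was read for comparison. In FBs 18 had enough counts, with log2 differences between the pairs of numbers from -1.73 to 1.60 and a median of -0.19, and 1 of them, the repressor gene Cry2, did not overlap, at 27.6 ± 10.6 CPM in libraries numbered 3 and 4 and 69.3 ± 25.5 CPM in the others (SD, n = 4 each). None of 20 did so in epithelial cells. In lymphoid cells Clock was higher in libraries numbered 3 and 4 (1 of 11), and in myeloid cells Nfil3, Nampt and Por were lower (3 of 9). Over all genes, the shares lower and higher without overlap were 3.43% and 4.99% in FBs and 4.42% and 5.44% in epithelial cells. They were 3.97% and 4.63% in lymphoid and 4.07% and 5.17% in myeloid cells. PBMCsec called none of the 22 listed clock genes in any class by edgeR, with none at an unadjusted p under 0.05. Against FBs, 15 of the list had enough counts, of which 3 were called higher and 6 lower in epithelial, 4 and 7 in lymphoid and 2 and 8 in myeloid cells. Over all genes the shares higher and lower were 36.2% and 32.4%, 34.5% and 34.5%, and 33.6% and 32.2%. In lymphoid cells alone 11 of the list passed the count minimum, and in myeloid cells 9. Of the genes called lower, Cry2, Bhlhe41 and Usp2 in lymphoid cells passed it only through other classes. In myeloid cells this held for Cry2, Bhlhe41, Usp2 and Rora. Nfil3, a repressor that binds D-box elements, was higher in all 3 classes (log2 differences 1.14, 1.95 and 1.46). Cry2 was lower in epithelial, lymphoid and myeloid cells (log2 differences -0.69, -2.999 and -3.31, edgeR adjusted p = 0.0045062, 1.65627e-08 and 1.2202e-08). It passed the count minimum through FBs and epithelial cells, not in lymphoid or myeloid cells alone. Rora, an activator of Arntl, was 1.14 higher in lymphoid cells (edgeR adjusted p = 6.97812e-08) and lower in epithelial (-0.48, edgeR adjusted p = 0.00506074) and myeloid cells (-4.08, edgeR adjusted p = 9.29164e-16). In myeloid cells Rora too was under the minimum alone. Nothing is read from the p-values of Cry2 in lymphoid and myeloid cells or of Rora in myeloid cells, since the filter kept these genes through classes where they are higher.

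Glucocorticoid-responsive and immediate early genes, which respond to hormone and to handling, were listed to show what moved beside the clock genes. Of 8 glucocorticoid-responsive genes, Tsc22d3, Zbtb16 and Klf9 were lower without overlap in FBs of libraries numbered 3 and 4, and Tsc22d3, Fkbp5, Mt1 and Mt2 in epithelial cells. Over all genes, 3.43% were lower and 4.99% higher without overlap in FBs, and 4.42% and 5.44% in epithelial cells. In lymphoid and in myeloid cells, 0 of the 5 genes of the list with enough counts were without overlap. Klf9, a Kruppel-like factor, was at 213 ± 27.7 CPM against 404 ± 78.5 CPM in FBs (SD, n = 4 each). The median log2 difference of this list was -1.12 in FBs and -0.86 in epithelial cells. Of 10 immediate early genes, 0 were without overlap in FBs, epithelial, lymphoid or myeloid cells, and the median was -0.55 in FBs. The part of these genes in the clock gene values was not tested. Neither list held a gene called after PBMCsec by edgeR in any class, and at an unadjusted p under 0.05 each held 1 gene, the former in myeloid and the latter in lymphoid cells.

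The genes with the most similar profile over the 8 libraries in FBs were ranked by the root mean square difference of centred log2 CPM. Nearest to Dbp, apart from members, were Tmem176b (0.616), Tmem176a (0.630), Prg4 (0.675), G0s2 (0.784) and Hspa5 (0.808), against a median of 1.51 over all genes, and the nearest member lay at 0.722. Prg4, which encodes lubricin, had 54.4, 49.3, 3.46 and 15.5 CPM in PBMCsec libraries 1 to 4 and 41.4, 69.7, 8.56 and 4.15 CPM in vehicle libraries 1 to 4. Among the nearest to Arntl were Mospd1 (0.256), Snapin (0.257), Hacd4 (0.299) and Ly96 (0.310), against a median of 0.911. The nearest member to Arntl lay at 1.34, beyond that median. Mospd1 and Ly96 stood at 4.14 CPM in the vehicle library numbered 1, the level of 1 UMI there, so their match rests partly on counts near the floor. All these profiles were ranked over the same 8 libraries and share their depth.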

How the data were processed

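Single cells of dorsal skin of 8 mice (4 PBMCsec, 4 vehicle) were used. The values the authors deposited are raw UMI counts, not normalized. Per the labels, reads were processed with Cell Ranger 3.0.2 on mm10, whereas the methods of the study name another release. Barcodes were kept if they had 500 to 4000 genes, no more than 20000 UMIs and a mitochondrial share of no more than 5%, and 3 genes that the study removed were left out. Libraries were integrated and clusters formed in Seurat 5.3.0 (R 4.3.3; 2000 variable features without the listed genes, 30 dimensions, resolution 1). A name needed 3 or more class markers, each in 25% or more of the cells of a cluster and 2-fold higher there, which named 32 of 35 clusters and left 361 cells unnamed. Doublet calling by Scrublet within scanpy 1.11.5 marked 18 cells (0.293%), which is under the share of a caller that works. No doublets were therefore removed, and the 5% of cells with the highest scores were left out as an alternative. Of the barcode sequences, 78 occurred in more than 1 library, 4 of them among kept cells.

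Sums of counts over the cells of a class in each library were tested with edgeR 4.0.16 (filterByExpr, TMM, quasi-likelihood, Benjamini-Hochberg adjustment over all genes tested, threshold 0.05). DESeq2 1.42.0 was the alternative. Values of log2 CPM used a prior count of 2. The test was checked on simulated counts with a capped spread between libraries. For the treatment they held no difference between library numbers, so the check does not cover the spread of the members in FBs. Whether equal library numbers pair the libraries was checked by correlating deviations from the group means across genes. The correlations were 0.34, 0.25, 0.15 and 0.42 in lymphoid cells and 0.29, 0.30, 0.47 and 0.57 in all kept cells, where each exceeds 0.1. In lymphoid and myeloid cells each PBMCsec library correlated most with the vehicle library of the same number. This also held for numbers 1, 2 and 4 in epithelial cells and for numbers 1 and 4 in FBs. In all kept cells it held for all but the PBMCsec library numbered 2, which correlated most with a vehicle library of another number. In myeloid cells they were 0.32, 0.09, 0.28 and 0.28. A difference between numbers 1 and 2 and numbers 3 and 4 that both treatments share also raises such correlations. Such a difference does not set which number within a pair matches best. The labels do not say that equal numbers are paired, and the main fit held no term for the number. Intervals of counts are exact Poisson intervals at 95% and cover counting error only. Gene positions are from GENCODE M21 (GRCm38), matched by Ensembl identifier for all 10 genes. Nothing in the labels beyond 1 mouse per library says how far mice of a group were independent, so p-values measure the spread between these libraries. The members and lists were chosen with earlier results of these data known. Named were all members, other listed clock genes that were called or did not overlap, and the 5 genes nearest in profile to Dbp and to Arntl, of which 1 is not reported here. Prg4, Klf9, Rora and the genes of overlapping pairs were picked for printing after their values were seen.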

Additional observations from a re-analysis of the deposited data

Results flagged for a closer look

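A sample far from the others of its treatment was looked for in 62 groups of 4 libraries with Dixon's test at its 95% critical value, which chance passes in about 1 of 20 groups. It marked 3. Nr1d1 was at 186 CPM in FBs of the vehicle library numbered 2, from 32 UMIs in 22 cells, against 54.7 CPM in the next highest vehicle library. In all kept cells the same library stood at 128 CPM for Nr1d1, with the next at 37.4 CPM. Tef was at 54.9 CPM in epithelial cells of the PBMCsec library numbered 1, with the next at 19.0 CPM.

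Arntl moved in opposite directions between the pairs of library numbers in 2 classes. In FBs every library numbered 3 and 4 was higher than every one numbered 1 and 2 (log2 difference 1.51), and in lymphoid cells every one was lower (-0.72). The FB values of vehicle libraries 1 and 2 rest on 2 and 3 UMIs of Arntl. The difference between the classes was not tested, since the contrast in FBs chose the gene.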

How the results depend on the processing

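No clock gene was called after PBMCsec by edgeR or DESeq2 under any alternative in any class. The count of all genes called, 0 in each class, became 3, 7 and 8 with DESeq2 in lymphoid, myeloid and all kept cells, and 51 and 123 without the filter on low counts in lymphoid and myeloid cells. With the library number as a replicate block it was 3 in lymphoid and 4 in myeloid cells. In FBs, epithelial cells and all kept cells it was 0. The labels do not say that equal numbers pair the libraries, and the matches by correlation differed between classes. In FBs the correlation of equal numbers was 0.17, -0.01, 0.05 and 0.23. Within libraries numbered 1 and 2, 7 genes were called in FBs, 2 in epithelial, 3 in lymphoid and 8 in myeloid cells, and within libraries numbered 3 and 4, 1 gene in myeloid cells. The count was 2 in myeloid cells without the highest Scrublet scores and 2 without both vehicle libraries numbered 1 and 2, an alternative chosen after seeing the data, as were the class comparisons within the pairs of numbers. Leaving out 1 library gave 0 to 1 genes in lymphoid (1 without PBMCsec replicate 4) and myeloid cells (1 without vehicle replicate 2) and 0 elsewhere. For the difference of the treatment effect between the pairs of numbers, DESeq2 called 20 genes where edgeR called 1. The causes were not tested.

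The log2 fold changes of the members in FBs after PBMCsec changed sign in 21 of 127 settings, none of them called. Under the replicate block Nr1d2 was at -0.045 and Arntl at 0.22. Arntl was at 0.057 with DESeq2 and 0.011 without the filter. In libraries numbered 3 and 4 alone Per3 was at -0.42, Dbp at -0.36, Tef at -0.51, Nr1d2 at -0.10 and Arntl at 0.19, and in libraries numbered 1 and 2 alone Per1 was at -0.37. Without both vehicle libraries numbered 1 and 2, Hlf was at 1.14 and Nr1d1 at 0.30. Leaving out 1 library, Per1 reached -0.10 without vehicle 3, Hlf 0.33 and Nr1d1 0.24 without vehicle 2, Nr1d2 -0.31 and -0.18 without PBMCsec 1 and vehicle 4, and Arntl 0.14 to 0.22 without PBMCsec 1, PBMCsec 2, vehicle 3 or vehicle 4. The ranges with 1 library left out were -0.10 to 0.86 for Per1, -1.62 to 0.33 for Hlf, -0.70 to 0.24 for Nr1d1, -0.31 to 0.61 for Nr1d2 and -0.32 to 0.22 for Arntl. In epithelial cells, too, 7 of 8 members changed sign under some setting.

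Against FBs, 5 members were called in epithelial cells without the filter (3 with it) and 4 in lymphoid cells in libraries numbered 3 and 4 alone (7 over all). Nr1d1 in epithelial cells was at 0.16 without the library term, at 0.16 in libraries numbered 1 and 2 alone and at 0.097 without PBMCsec replicate 4. Hlf (-0.67) and Arntl (0.71) in epithelial cells and Per1 (-0.14) and Arntl (0.061) in myeloid cells changed sign in libraries numbered 1 and 2 alone, and Dbp (0.14), Nr1d2 (0.019) and Arntl (-0.77) in lymphoid cells in libraries numbered 3 and 4 alone. Arntl in lymphoid cells was at -0.026 and -0.018 without PBMCsec replicate 2 and vehicle replicate 2. The ranges with 1 library left out were -0.27 to 0.097 for Nr1d1 in epithelial cells and -0.026 to 0.43 for Arntl in lymphoid cells. Leaving out 1 library, 3 to 4 members were called in epithelial, 5 to 7 in lymphoid and 7 in myeloid cells, where over all libraries 32.2% to 36.2% of all genes were called in each direction and 4 lymphoid and 7 myeloid members passed the count minimum only through other classes. Values within 1 pair of numbers rest on the FB values that chose the genes.

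Of the tested members, 7 of 8 did not overlap between the pairs of numbers in FBs with TMM (8.42% of all genes) or total scaling (8.45%). It was 7 to 9 of 8 or 9 with 1 library left out (9.71% to 17.1%) and 6 of 9 without the highest Scrublet scores (7.89%). In the sum over every deposited barcode, which holds all cell types and not FBs alone, 8 of 10 did not overlap (21.1%). The log2 difference of Arntl was 0.21 there, against 0.38 in all kept cells. Few cells limit the precision in vehicle libraries numbered 1 and 2, with 28 and 22 FBs.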
